A study of Canis lupus familiaris with 22 samples.

Results

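The solute carriers and ion channels were taken as the genes with a RefSeq messenger RNA probe whose symbol starts with SLC, KCN, SCN, CACN, CLCN or TRP, leaving out SLC11A1. This gave 71 genes with 108 probes, of 36619 genes on the array, and no gene whose symbol starts with CACN was among them. Bulk mammary tissue was compared between dogs with malignant canine mammary tumours (CMTs), dogs with benign CMTs and dogs with healthy mammary tissue. The tumours were spontaneous clinical cases of dogs referred for surgery, no agent was compared, and ages and breeds were not used here. RNA labelled with Cy3 was hybridised to Agilent canine arrays, and 19 arrays with scanner values were analysed, out of 22 labelled. Of the 19 arrays, 9 came from the 5 dogs with malignant tumours, 6 from the 3 with benign tumours and 4 from the 2 healthy ones. The remaining 3 arrays, 1 of malignant dog 5 and 2 of malignant dog 6, were measured only as signals with no background subtracted and entered an alternative. All values below count dogs, with the duplicate arrays of a dog averaged, and p-values measure the spread between these dogs. A level is the log2 signal minus the 75th percentile of its array, so that 0 is that percentile, and levels are compared between dogs for 1 probe and never between probes. The summed level of a marker list is the log2 of the added signals of its markers, each taken relative to that percentile before the log2. Its brightest markers therefore weigh most. In bulk tissue, fewer cells of a type and less RNA per cell cannot be told apart.

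Solute carriers move sugars, amino acids, vitamins, metal ions and other small molecules across membranes, either down a gradient or coupled to sodium, protons or an exchanged solute. Ion channels open a pore for potassium, sodium, chloride or calcium and set the membrane potential, and many of them need accessory subunits that carry no pore of their own. Proliferating tumour cells are known for a high uptake of glucose and amino acids, and the mammary gland uses glucose and amino acid carriers to feed milk synthesis. A few symbols in the set name no carrier or pore. SLC9A3R1 and SLC9A3R2 are scaffold proteins that bind sodium-proton exchangers, SLC3A1 and SLC3A2 are the heavy chains that take amino acid carriers to the membrane, and KCNE2, KCNIP2, KCNMB1 and SCN2B are accessory subunits or binding proteins.

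The share of probes well above background ranged from 62.1% to 83.2% over the arrays, and the 75th percentile of an array was between 6.37 and 45.3 times its median local background, lowest on an array of malignant dog 3. Malignant dog 5 had 1 scanned array, the only one on its slide, scan day and scanner, while all other arrays shared a scan day and a scanner. It also had the lowest summed mammary epithelial level, 1.76, and the highest summed level of 4 adipose tissue markers, 5.74 against 1.51 to 4.38 in the other dogs. The adipose markers did not go together in it, with ADIPOQ the highest of all dogs at 4.12 and ADRB3 the lowest at 0.225. The part of either marker list in its values was not tested. The duplicate arrays of a dog correlated at r between 0.982 and 0.99 over all probes in the 9 dogs with both. Of the 7 mammary epithelial markers measured, all but ESR1 were well above background on all 4 healthy arrays, and their summed level was 5.09 and 6.34 in healthy dogs 1 and 2, 1.76 to 8.03 in the malignant and 4.75 to 8.45 in the benign dogs. Genes of the exocrine pancreas stood out in the healthy tissue. The summed level of the 7 exocrine pancreas markers measured was 12.2 and 10.1 in healthy dogs 1 and 2, against 0.70 to 1.84 in the malignant and 1.01 to 1.79 in the benign dogs. That of the 6 pancreatic islet markers measured was 9.62 and 4.81 in healthy dogs 1 and 2, -2.09 to -0.76 in the malignant dogs and -1.81 to 2.29 in the benign dogs, and REG3A, SST and the kidney gene UMOD were well above background on all 4 healthy and on no tumour array. Comparisons with healthy tissue thus rest on 2 dogs that differed from the tumours and from each other in these markers, whose part in the differences below was not tested.

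Most of the carriers and channels were measurable in mammary tissue. The probe was well above background on all 19 arrays in 39 of the 71 genes, and on at least 4 arrays in 64, which were tested. SLC7A9, SLC4A1 and SLC6A2, a cystine carrier subunit of kidney and gut, the anion exchanger of red cells and the noradrenaline carrier, were well above background on none. SLC10A2, KCNC1, KCNJ16 and SLC2A4 were so on 1 to 3 arrays and were not tested, the last being the insulin-regulated glucose carrier of muscle and fat. Of the 71 genes, 14 were well above background on no healthy array, 7 on no malignant and 4 on no benign array.

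None of the 64 genes tested passed the threshold of an adjusted p of 0.05 in any of the comparisons by limma with Benjamini-Hochberg adjustment over 28915 genes. Over all genes, 88 (0.304%) were called in malignant against healthy tissue, 81 (0.28%) in benign against healthy tissue and 0 (0%) in malignant against benign tumours, where 191 genes were higher and 320 lower at an unadjusted p of at most 0.05. The smallest adjusted p of a carrier or channel was 0.776 in malignant against healthy, 0.285 in benign against healthy and 0.9997 in malignant against benign tissue. In malignant against healthy tissue, 3 members were higher and 2 lower at an unadjusted p of at most 0.05 (4.69% and 3.12% of 64), against 2.25% and 3.6% of all genes. In benign against healthy tissue, 7 were higher and 4 lower (10.9% and 6.25%), against 3% and 3.78% of all genes. Between malignant and benign tumours, 0 were higher and 2 lower, against 0.661% and 1.11% of all genes. The methods' t-test, here run unpaired and with Benjamini-Hochberg adjustment where the methods name a paired test with another correction, gave 2, 7 and 3 members at that unadjusted threshold in the same order of comparisons, and 0 in each after adjustment.

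The dogs of a pair of groups did not overlap in a few members, and each count is given with the share of all genes in which the same was found. Every malignant dog lay above both healthy dogs in 5 members (7.81%) and below both in 0, against 4.23% and 2.78% of all genes. Every benign dog lay above both healthy dogs in 10 members (15.6%) and below both in 5 (7.81%), against 11.9% and 11.6% of all genes. Every malignant dog lay above every benign dog in 0 members and below every benign dog in 2 (3.12%), against 1.07% and 0.875% of all genes. SLC7A11, counted here and above by p-value, passed the filter for testing only through the benign arrays. KCNJ12 and SLC45A2, also counted against healthy tissue, passed it only through tumour arrays. The median log2 fold change of the 64 members was 0.12, 0.05 and 0.03 in malignant against healthy, benign against healthy and malignant against benign tissue, beside 0.07, 0.01 and 0.08 over all genes. The medians of the members thus lay close to those of all genes, and what follows concerns single genes. The counts of calls against healthy tissue rest on which healthy dog was included. Without healthy dog 2, 3 members were called in each comparison with healthy tissue (KCNH2, SLC7A8 and SLC9A3R2 both times) beside 814 and 862 of all genes. The healthy arm then held 1 dog, assumed to vary like the tumour groups, so that these calls describe healthy dog 1. Without healthy dog 1, 0 members were called beside 51 and 47 of all genes.

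**Figure D1:**
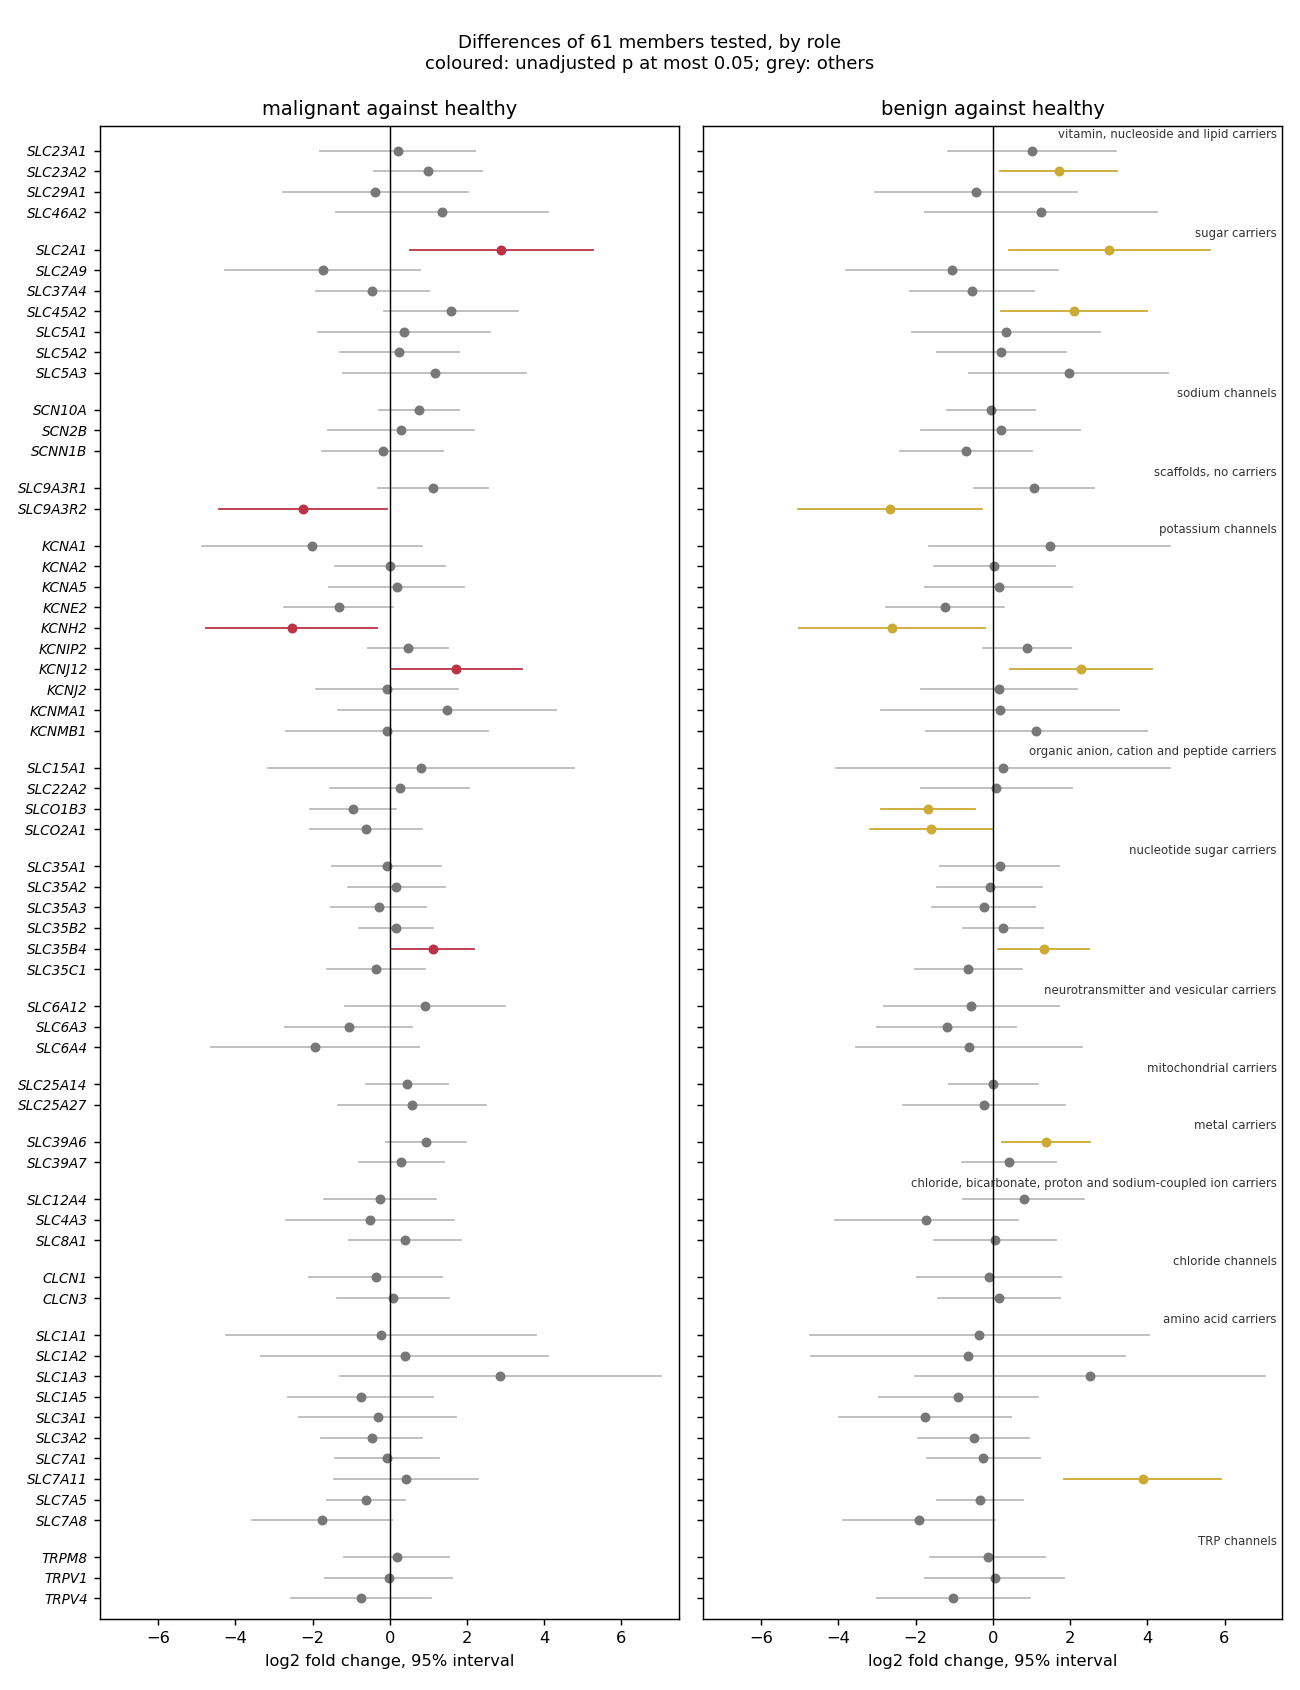
Log2 fold change of 61 of the 64 members tested (points) with its 95% interval from limma (lines), for malignant against healthy tissue on the left and benign against healthy tissue on the right, grouped by role. Coloured are genes at or under an unadjusted p of 0.05, 5 on the left and 11 on the right, and the intervals of the other genes cross 0. For members well above background on no array of a group, such as SLC7A11, KCNJ12 and SLC45A2 in healthy tissue, the point is a fitted value and not a measured size.

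Among the sugar carriers, SLC2A1, the basal glucose carrier of most cells, was higher in every tumour than in either healthy dog. SLC2A1 levels were 3.45, 2.54, 5.15, 4.82 and 3.43 in malignant dogs 1 to 5, 2.68, 2.74 and 6.58 in benign dogs 1 to 3, and 0.27 and 1.71 in healthy dogs 1 and 2. The lowest tumour, malignant dog 2, stood above healthy dog 2, and the highest was benign dog 3. On the log2 scale the difference was 2.89 ± 1.08 (SE), unadjusted p = 0.0216, adjusted p = 0.776 in malignant against healthy tissue and 3.02 ± 1.18 (SE), unadjusted p = 0.0267, adjusted p = 0.693 in benign against healthy tissue. It had the lowest p of all members in malignant against healthy tissue and did not pass the adjusted threshold. The other probe of SLC2A1 gave log2 fold changes of 2.16 and 2.64. Arrays on the same slide gave 2.49, 2.65 and 3.08 on the 3 slides with malignant and healthy arrays, and 1.71 and 2.96 on the 2 with benign and healthy arrays. Malignant and benign tumours overlapped, with a difference of -0.12 (95% interval -2.20 to 1.95). The 2 proliferation markers measured, BIRC5 and CCNB2, were likewise higher in every tumour, with a summed level of 1.00 to 2.89 in the malignant, 0.07 to 3.25 in the benign and -1.12 to -0.97 in the healthy dogs, and their part was not tested.

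The remaining sugar carriers had differences in both directions. Of the 8 in the whole group, SLC2A1 included, 7 were tested. Of these, 5 had a positive and 2 a negative log2 fold change in malignant tissue (median 0.36), and 5 and 2 in benign tissue (median 0.34). SLC5A3, the sodium-coupled carrier of myo-inositol, had levels of -1.43, -2.23, 1.01, -1.50 and -3.35 in malignant dogs 1 to 5, -0.24, 0.24 and -2.10 in benign dogs 1 to 3, and -3.70 and -1.62 in healthy dogs 1 and 2. Benign dogs 1 and 2 and malignant dog 3 were high, but the groups overlapped, with differences of 1.16 ± 1.07 (SE) in malignant and 1.96 ± 1.17 (SE) in benign tissue on the log2 scale. SLC2A9, a carrier of urate and sugar, stood at 0.33, 2.50, -2.07, -0.38 and 2.14 in malignant dogs 1 to 5, 1.74, 0.46 and 1.37 in benign dogs 1 to 3, and 3.47 and 1.02 in healthy dogs 1 and 2. Healthy dog 1 was highest and healthy dog 2 lay among the tumours, so that the malignant difference of -1.74 was -0.52 without healthy dog 1 and the benign difference of -1.06 was 0.17. SLC45A2, a carrier of pigment cell organelles, was well above background on 7 of 9 malignant, 6 of 6 benign and 0 of 4 healthy arrays, and its levels were -4.43, -4.35, -5.09, -4.77 and -1.91 in malignant dogs 1 to 5, -3.73, -2.86 and -4.19 in benign dogs 1 to 3, and -5.76 and -5.62 in healthy dogs 1 and 2. Every tumour lay above both healthy dogs in it. The malignant mean was at least 2.19-fold and the benign mean at least 3.13-fold above a bound for the healthy arrays. On each array, this bound is the higher of the gene's own level and the lowest signal well above background. The fit gave unadjusted p = 0.0707, adjusted p = 0.867 in malignant and unadjusted p = 0.0334, adjusted p = 0.702 in benign tissue. With background correction by normexp the benign log2 difference was -0.30. SLC5A1, SLC5A2 and SLC37A4, the sodium-coupled glucose carriers of gut and kidney and the glucose phosphate carrier of the endoplasmic reticulum, differed by between -0.54 and 0.37 on the log2 scale in either tumour group. The other, dimmer probe of SLC37A4, well above background on all arrays, gave -0.98 in malignant and -1.01 in benign tissue.

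SLC35B4 and SLC39A6 were also higher in tumours by smaller amounts, with every tumour above both healthy dogs for SLC35B4. SLC35B4, which takes nucleotide sugars into the endoplasmic reticulum and Golgi, had levels of -2.20, -2.34, -1.15, -1.78 and -1.31 in malignant dogs 1 to 5, -1.90, -1.61 and -1.14 in benign dogs 1 to 3, and -2.82 and -2.90 in healthy dogs 1 and 2. The healthy dogs were close to each other and lay below all tumours, and the log2 difference was 1.11 ± 0.49 (SE), unadjusted p = 0.0448, adjusted p = 0.844 in malignant and 1.31 ± 0.53 (SE), unadjusted p = 0.0315, adjusted p = 0.702 in benign tissue. Signals as scanned, with no background taken off, gave 0.69 and 0.81. The other 5 carriers of nucleotide sugars, SLC35A1, SLC35A2, SLC35A3, SLC35B2 and SLC35C1, had log2 fold changes between -0.36 and 0.17 in malignant and between -0.64 and 0.27 in benign tissue. SLC39A6, a zinc importer known as an oestrogen-regulated gene of breast tissue, stood at 3.10, 2.23, 2.11, 2.78 and 2.98 in malignant dogs 1 to 5, 3.07, 3.17 and 3.01 in benign dogs 1 to 3, and 1.25 and 2.15 in healthy dogs 1 and 2. All benign dogs lay above both healthy dogs, malignant dog 3 lay just below healthy dog 2, and the log2 difference was 1.38 ± 0.52 (SE), unadjusted p = 0.0221, adjusted p = 0.66 in benign and 0.94 ± 0.47 (SE), unadjusted p = 0.0743, adjusted p = 0.87 in malignant tissue. All 3 of its probes were positive in both comparisons, and without healthy dog 1, the lower of the pair, the differences were 0.93 in benign and 0.49 in malignant tissue. The related zinc carrier SLC39A7 differed by 0.30 and 0.42, and its other probe well above background on all arrays by -0.005 and -0.76, the benign value with the opposite sign. SLC35B4, SLC39A6, SLC45A2, SLC7A11, KCNJ12, SLCO1B3 and SLCO2A1 were singled out after their values were seen, by an unadjusted p of at most 0.05.

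**Figure D2:**
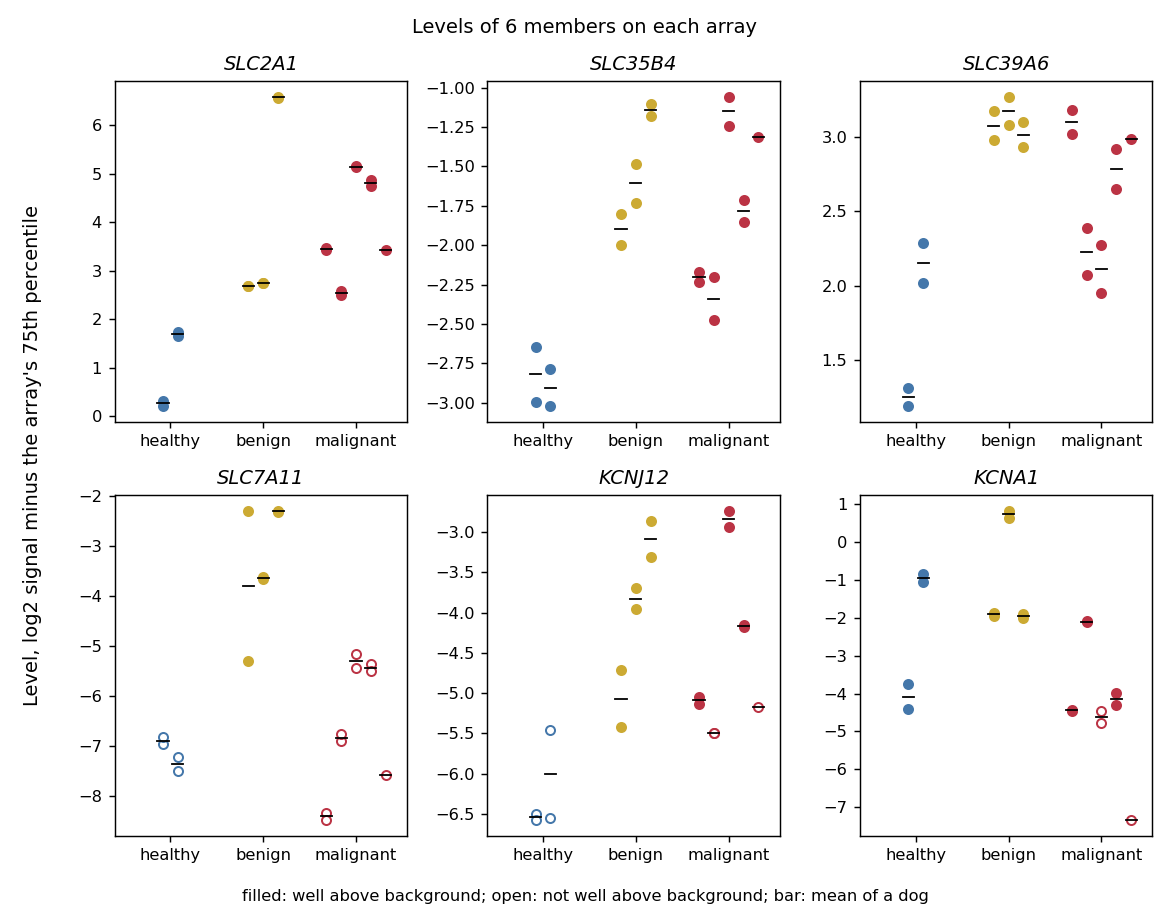
Level (log2 signal minus the 75th percentile of the array) of 6 members on each array, by group, with the arrays of a dog in a column and a bar at the mean of the dog. Filled points were well above background and open points were not. SLC2A1 and SLC35B4 lay higher in all 8 tumour dogs than in the healthy dogs, SLC7A11 was filled on benign arrays alone, and KCNA1 was lower in all malignant than in all benign dogs. Vertical axes differ between panels.

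Among the amino acid carriers, SLC7A11, the cystine and glutamate exchanger that supplies cysteine for glutathione, was detected in benign tumours alone. It was well above background on 6 of 6 benign arrays, 0 of 9 malignant arrays and 0 of 4 healthy arrays. SLC7A11 levels were -8.41, -6.84, -5.30, -5.44 and -7.58 in malignant dogs 1 to 5, -3.81, -3.65 and -2.31 in benign dogs 1 to 3, and -6.90 and -7.37 in healthy dogs 1 and 2. All benign dogs lay above all other dogs. The benign mean was at least 6.42-fold above the bound for the healthy arrays and at least 5.4-fold above that for the malignant arrays. The fit gave unadjusted p = 0.00152, adjusted p = 0.285 in benign against healthy tissue. It gave unadjusted p = 0.00069, adjusted p = 0.9997 in malignant against benign tumours. Both were the lowest p of all members. SLC7A11 reached the 4 arrays needed for testing only through the benign arrays, where it was high. These p-values and ranks are therefore no support beyond the detection counts. The duplicate arrays of benign dog 1 differed, at -2.30 and -5.31, the lower one near malignant dogs 3 and 4.

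The size of the SLC7A11 difference depended on how the dim background was handled, while its direction in these comparisons did not. With normexp, which moved the median of all genes by -0.53 in benign against healthy tissue and by 0.27 in malignant against benign tumours, the log2 difference was 0.32 and -0.64. In the signals as scanned, which moved those medians by -0.40 and 0.18, it was 0.75 and -1.03, and malignant dog 3 then lay among the benign dogs. The macrophage markers CD163, FCGR1A and TYROBP had summed levels of 3.92 to 4.94 in the benign, 2.52 to 4.82 in the malignant and 0.42 to 3.04 in the healthy dogs, and their part was not tested. SLC3A2, the heavy chain with which SLC7A11, SLC7A5 and SLC7A8 pair, was well above background on all arrays, at 5.45, 5.29, 6.64, 5.72 and 4.33 in malignant dogs 1 to 5, 5.67, 5.07 and 5.65 in benign dogs 1 to 3, and 6.30 and 5.61 in healthy dogs 1 and 2. Its groups overlapped and differed by -0.47 ± 0.60 (SE) in malignant and -0.49 ± 0.65 (SE) in benign against healthy tissue on the log2 scale.

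Of the 11 amino acid carriers and heavy chains, 10 were tested, 3 with a positive and 7 with a negative log2 fold change in malignant tissue (median -0.27) and 2 and 8 in benign tissue (median -0.42). SLC7A1, a carrier of arginine and lysine, showed little difference between groups at 2.39, 2.63, 4.13, 2.70 and 2.05 in malignant dogs 1 to 5, 2.52, 2.36 and 2.94 in benign dogs 1 to 3, and 3.44 and 2.27 in healthy dogs 1 and 2. Its log2 differences were -0.07 ± 0.61 (SE) and -0.25 ± 0.66 (SE), and malignant dog 3 and healthy dog 1 were highest. SLC7A8, a carrier of large neutral amino acids, stood at -3.87, -4.16, -2.79, -4.02 and -3.68 in malignant dogs 1 to 5, -3.61, -4.03 and -3.90 in benign dogs 1 to 3, and -0.08 and -3.79 in healthy dogs 1 and 2. Healthy dog 1 alone was high and healthy dog 2 lay among the tumours, so that the malignant difference was -1.77 ± 0.82 (SE), unadjusted p = 0.0549, adjusted p = 0.855, and 0.09 without healthy dog 1. SLC7A5, with a like function and the same partner, differed by -0.62 and -0.34, and the glutamine carrier SLC1A5 by -0.75 and -0.89. SLC3A1, the heavy chain of the kidney and gut cystine carrier, was measured at -4.22, -1.08, -2.64, -1.40 and -0.31 in malignant dogs 1 to 5, -2.65, -4.01 and -3.44 in benign dogs 1 to 3, and -1.06 and -2.17 in healthy dogs 1 and 2. All benign dogs lay below both healthy dogs, while the malignant dogs spanned the healthy range, with log2 differences of -1.75 ± 1.01 (SE), unadjusted p = 0.111, adjusted p = 0.802 in benign against healthy and 1.43 ± 0.81 (SE) in malignant against benign tissue.

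The glutamate carriers SLC1A1, SLC1A2 and SLC1A3 were among the 5 members with the largest spread between malignant dogs. SLC1A2 and SLC1A3 are known chiefly from brain, where they clear glutamate. SLC1A3, of glial cells, had levels of 0.30, -0.72, 2.68, -1.46 and 5.65 in malignant dogs 1 to 5, -0.67, 1.94 and 1.58 in benign dogs 1 to 3, and -4.30 and 1.16 in healthy dogs 1 and 2. Malignant dog 5 was highest and healthy dog 1 lowest by far, and the difference of 2.86 ± 1.88 (SE) in malignant tissue was 0.13 without healthy dog 1 and 1.77 without malignant dog 5, whose array had a slide, scan day and scanner of its own. SLC1A1 levels were 2.29, 3.42, -0.14, 2.06 and -4.82 in malignant dogs 1 to 5, 2.27, -1.21 and 0.26 in benign dogs 1 to 3, and 0.70 and 0.88 in healthy dogs 1 and 2. Here malignant dog 5 was lowest, and the other malignant dogs were on either side of the healthy pair. SLC1A2 showed -3.01, 2.30, -1.70, 0.60 and -3.94 in malignant dogs 1 to 5, 0.80, -3.65 and -3.67 in benign dogs 1 to 3, and -2.47 and -0.59 in healthy dogs 1 and 2. Malignant dog 2 was high, dog 5 low, and no group stood apart in SLC1A1 or SLC1A2, whose log2 differences from healthy tissue lay between -0.65 and 0.38 with standard errors of at least 1.69. Histological types of the malignant tumours were not used here.

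**Figure D3:**
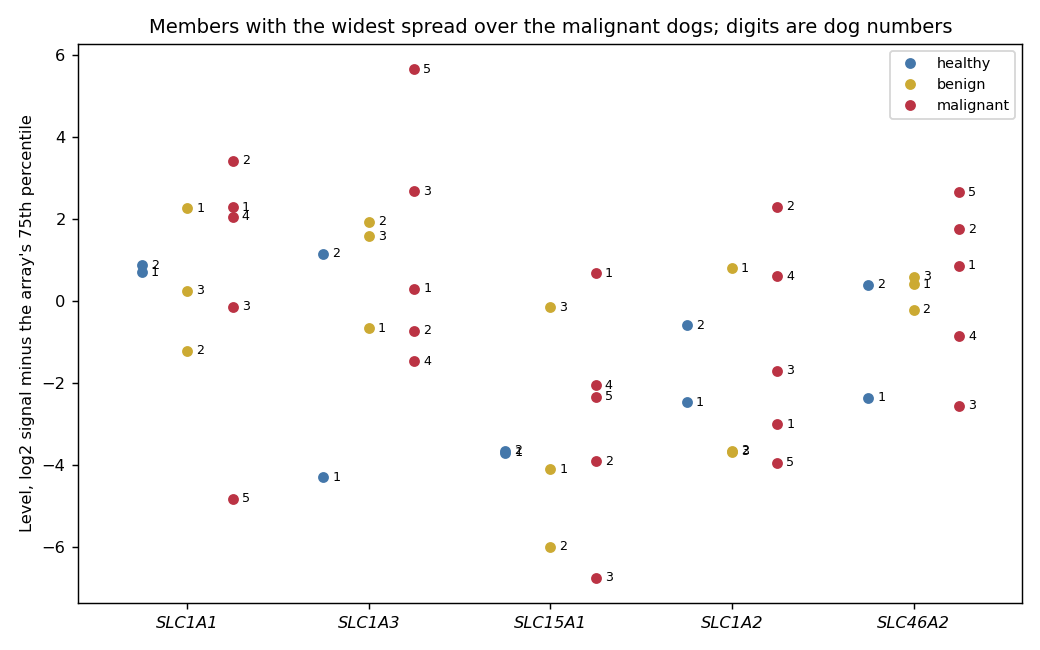
Level (log2 signal minus the 75th percentile of the array) of the 5 members with the largest SD over the malignant dogs, for each dog, with its number beside the point. Malignant dog 5 was the highest malignant dog in SLC1A3 and SLC46A2 and the lowest in SLC1A1 and SLC1A2, and the healthy and benign dogs lay within the malignant range except healthy dog 1 in SLC1A3.

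The vitamin carriers SLC23A1 and SLC23A2, which bring ascorbate into cells with sodium, were higher in all benign dogs than in both healthy dogs. The same was found in 11.9% of all genes. In SLC23A1 the groups barely parted, with benign dog 2 at -4.57 and healthy dog 2 at -4.63. SLC23A2 levels were -3.86, -4.91, -4.51, -4.15 and -2.34 in malignant dogs 1 to 5, -3.38, -3.22 and -3.10 in benign dogs 1 to 3, and -4.97 and -4.90 in healthy dogs 1 and 2. The benign dogs were close to each other and above the healthy pair, and malignant dog 5 was higher still, with log2 differences of 1.70 ± 0.69 (SE), unadjusted p = 0.0318, adjusted p = 0.702 in benign and 0.98 ± 0.63 (SE) in malignant tissue, the latter 0.58 without malignant dog 5. Only 1 of 4 healthy arrays was well above background in SLC23A2, and with normexp the benign difference was -0.23, relative to the shift of -0.53 over all genes. SLC23A1 stood at -4.25, -4.44, -5.83, -5.75 and -2.44 in malignant dogs 1 to 5, -4.23, -4.57 and -2.38 in benign dogs 1 to 3, and -4.86 and -4.63 in healthy dogs 1 and 2, with a benign difference of 1.02 ± 0.99 (SE) that was -0.62 with normexp. It was on both sides of the healthy dogs in the malignant group. SLC46A2, a carrier known from thymic stroma, had levels of 0.86, 1.75, -2.56, -0.85 and 2.66 in malignant dogs 1 to 5, 0.41, -0.21 and 0.60 in benign dogs 1 to 3, and -2.36 and 0.40 in healthy dogs 1 and 2. Healthy dog 1 was low and the groups overlapped, so that the malignant difference of 1.35 ± 1.25 (SE) was -0.03 without that dog. The nucleoside carrier SLC29A1 differed by -0.38 and -0.43, and by 0.07 and 0.18 at its dimmer probe.

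The organic anion carriers SLCO1B3 and SLCO2A1 were lower in every benign tumour than in either healthy dog. The same was found in 11.6% of all genes. In SLCO2A1 the groups barely parted, with benign dog 1 at -1.31 and healthy dog 2 at -1.24. SLCO1B3, a carrier of bile acids and hormone conjugates in liver, had levels of -5.51, -4.85, -4.36, -5.24 and -5.69 in malignant dogs 1 to 5, -5.46, -6.17 and -5.88 in benign dogs 1 to 3, and -4.55 and -3.79 in healthy dogs 1 and 2. All benign dogs lay below both healthy dogs, malignant dog 3 was the sole malignant dog above healthy dog 1, and the log2 difference was -1.67 ± 0.55 (SE), unadjusted p = 0.0119, adjusted p = 0.60 in benign and -0.96 ± 0.51 (SE), unadjusted p = 0.0846, adjusted p = 0.888 in malignant tissue. The other, dimmer probe of SLCO1B3, well above background on 4 arrays, gave -0.46 in benign and 0.15 in malignant tissue. SLCO2A1, the prostaglandin carrier, stood at -1.50, -0.56, -1.18, -0.07 and -0.44 in malignant dogs 1 to 5, -1.31, -1.55 and -2.36 in benign dogs 1 to 3, and 0.97 and -1.24 in healthy dogs 1 and 2. Healthy dog 1 was the highest and the benign dogs were the lowest apart from malignant dog 1, with a benign difference of -1.61 ± 0.72 (SE), unadjusted p = 0.047, adjusted p = 0.733, and of -0.50 without healthy dog 1. SLC15A1, the proton-coupled peptide carrier of gut, ranged widely within the tumours, with 0.68, -3.91, -6.74, -2.05 and -2.34 in malignant dogs 1 to 5, -4.10, -6.00 and -0.15 in benign dogs 1 to 3, and -3.70 and -3.65 in healthy dogs 1 and 2. The healthy dogs were alike and the tumours lay on both sides of them, with differences of 0.81 ± 1.79 (SE) and 0.27 ± 1.96 (SE).

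Ion exchangers and cotransporters showed differences in both directions. SLC4A3, a chloride and bicarbonate exchanger of excitable tissue, had levels of -3.63, -3.13, -0.91, -3.26 and -1.31 in malignant dogs 1 to 5, -2.71, -2.54 and -5.72 in benign dogs 1 to 3, and -1.91 and -1.96 in healthy dogs 1 and 2. All benign dogs lay below both healthy dogs, which were close to each other, and benign dog 3 was far lowest, with log2 differences of -1.72 ± 1.07 (SE) in benign and -0.51 ± 0.98 (SE) in malignant tissue. SLC12A4, a potassium and chloride cotransporter that sets cell volume, stood at -1.52, -1.71, 0.04, -1.52 and -1.61 in malignant dogs 1 to 5, -0.86, -0.13 and 0.35 in benign dogs 1 to 3, and -1.86 and -0.16 in healthy dogs 1 and 2. Malignant dog 3 was far from the other malignant dogs, and the difference of -1.05 ± 0.57 (SE) between malignant and benign tumours (unadjusted p = 0.0927, adjusted p = 0.9997) did not pass the test and was -0.06 by its other probe. SLC6A12, a carrier of betaine and GABA that also serves cell volume, was high in malignant dog 1 alone, at 0.92, -2.73, -2.37, -3.15 and -2.62 in malignant dogs 1 to 5, -3.07, -3.30 and -4.00 in benign dogs 1 to 3, and -3.19 and -2.62 in healthy dogs 1 and 2. It differed by 1.47 ± 0.82 (SE) between malignant and benign tumours. The sodium-calcium exchanger SLC8A1 differed by 0.40 and 0.06 from healthy tissue, and its 2 other probes, well above background on 2 and 7 arrays, gave -2.09 and 2.19 in benign tissue.

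The scaffold proteins of sodium-proton exchangers had differences of opposite sign. SLC9A3R1, which is known from epithelia and oestrogen-responsive breast cells, had levels of -1.83, -2.76, -3.08, -2.12 and -1.73 in malignant dogs 1 to 5, -2.59, -3.40 and -1.08 in benign dogs 1 to 3, and -3.25 and -3.60 in healthy dogs 1 and 2. Every malignant dog and benign dogs 1 and 3 lay above both healthy dogs, with log2 differences of 1.12 ± 0.65 (SE), unadjusted p = 0.113, adjusted p = 0.913 in malignant and 1.07 ± 0.71 (SE), unadjusted p = 0.159, adjusted p = 0.839 in benign tissue. SLC9A3R2 levels were 2.31, 3.23, 4.46, 2.60 and 1.91 in malignant dogs 1 to 5, 2.70, 2.43 and 2.33 in benign dogs 1 to 3, and 7.25 and 3.06 in healthy dogs 1 and 2. Healthy dog 1 lay far above all other dogs, and the log2 difference of -2.25 ± 0.99 (SE), unadjusted p = 0.0439, adjusted p = 0.844 in malignant tissue was -0.16 without healthy dog 1 and -4.34 (adjusted p = 0.0267) against healthy dog 1 alone, again with the spread taken from the tumour groups. In benign tissue it was -2.67 ± 1.08 (SE), unadjusted p = 0.0313, adjusted p = 0.702, and -0.57 without healthy dog 1, with all benign dogs below both healthy dogs.

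Of the 12 potassium channel genes 10 were tested, and the largest differences were in KCNH2, KCNA1 and KCNJ12. In malignant tissue 5 had a positive and 5 a negative log2 fold change (median -0.03), and in benign tissue 8 and 2 (median 0.18). KCNH2, the channel of cardiac repolarisation that is also found in several tumours and in islet cells, had levels of -3.25, -3.12, -1.89, -3.48 and -3.43 in malignant dogs 1 to 5, -2.72, -3.27 and -3.34 in benign dogs 1 to 3, and 1.88 and -2.88 in healthy dogs 1 and 2. Healthy dog 1 alone was high and healthy dog 2 lay within the tumours, and the malignant difference of -2.54 ± 1.00 (SE), unadjusted p = 0.0286, adjusted p = 0.812 was -0.16 without healthy dog 1 and -4.91 (adjusted p = 0.0046) against healthy dog 1 alone, a healthy arm of 1 dog with its spread taken from the tumour groups. All 3 of its probes had negative differences in both comparisons with healthy tissue, from -2.62 to -1.59. KCNJ12, an inward rectifier of muscle, was well above background on 7 of 9 malignant, 6 of 6 benign and 0 of 4 healthy arrays, at -5.09, -5.49, -2.83, -4.17 and -5.17 in malignant dogs 1 to 5, -5.07, -3.83 and -3.08 in benign dogs 1 to 3, and -6.54 and -6.00 in healthy dogs 1 and 2. Every tumour lay above both healthy dogs. The malignant mean was at least 2.21-fold and the benign mean at least 3.25-fold above the bound for the healthy arrays. The fit gave unadjusted p = 0.0467, adjusted p = 0.846 in malignant and unadjusted p = 0.0201, adjusted p = 0.654 in benign tissue. With normexp, however, the log2 differences were -0.22 and -0.53, beside median shifts of -0.27 and -0.53 over all genes.

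KCNA1, a voltage-gated channel known chiefly from nerve, was lower in every malignant than in every benign tumour. KCNA1 levels were -4.44, -2.10, -4.61, -4.13 and -7.34 in malignant dogs 1 to 5, -1.90, 0.73 and -1.95 in benign dogs 1 to 3, and -4.08 and -0.94 in healthy dogs 1 and 2. All malignant dogs lay below all benign dogs, though malignant dog 2 was close to the lowest benign dogs and the healthy dogs lay apart from each other. The log2 difference was -3.48 ± 1.13 (SE), unadjusted p = 0.0107, adjusted p = 0.9997, and its other probe gave -2.12. Arrays of the same slide gave -2.52, -3.68, -2.09 and -4.28 on 4 slides. With malignant dog 6, whose arrays were measured in the table of signals as scanned, the difference was -1.49 on those signals, against -1.83 on the same signals of the 19 arrays. KCNMA1, the pore of the calcium-activated channel of smooth muscle, was well above background on 7 of 9 malignant, 2 of 6 benign and 0 of 4 healthy arrays, at -5.05, -4.93, -4.17, -7.61 and -2.69 in malignant dogs 1 to 5, -6.86, -3.73 and -7.98 in benign dogs 1 to 3, and -6.89 and -5.87 in healthy dogs 1 and 2. Its accessory subunit KCNMB1 stood at -0.78, -0.55, -3.90, -3.05 and -4.30 in malignant dogs 1 to 5, -0.33, -1.81 and -1.81 in benign dogs 1 to 3, and -4.13 and -0.77 in healthy dogs 1 and 2. The groups overlapped in both, with malignant against benign differences of 1.30 ± 1.12 (SE) and -1.20 ± 1.03 (SE), and the dimmer probes of KCNMA1 gave 0.31 and 0.48. KCNA5 overlapped too, at 3.24, 2.79, 5.05, 3.82 and 1.65 in malignant dogs 1 to 5, 3.59, 2.54 and 3.72 in benign dogs 1 to 3, and 2.76 and 3.51 in healthy dogs 1 and 2, with differences of 0.17 ± 0.79 (SE) and 0.15 ± 0.86 (SE) from healthy tissue.

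The other channels and carriers had no member at an unadjusted p of 0.05 or less. The accessory sodium channel subunit SCN2B and the epithelial sodium channel subunit SCNN1B had log2 fold changes between -0.19 and 0.30 in malignant and between -0.70 and 0.21 in benign against healthy tissue, while another SCN2B probe that was well above background on all arrays gave -1.69 and -2.30. SCN10A, a channel of sensory nerve, was well above background on 6 malignant, 2 benign and 0 healthy arrays. The chloride channel and exchanger CLCN1 and CLCN3 lay between -0.36 and 0.15, and the TRP channels TRPM8, TRPV1 and TRPV4, which sense cold, heat and osmotic or mechanical stimuli, between -1.03 and 0.17. Other probes of CLCN3 and TRPV4 gave different values, 0.82 and -0.28 for CLCN3 (on all arrays) and 0.82 and 0.10 for TRPV4 (on 17 arrays) in malignant and benign tissue. The mitochondrial uncoupling carriers SLC25A14 and SLC25A27 lay between -0.23 and 0.58. The dopamine carrier SLC6A3 differed by -1.07 in malignant tissue, with 3 malignant, 1 benign and 2 healthy arrays well above background. Its highest dog was healthy dog 1, at -3.28, and healthy dog 2 lay among the tumours at -6.03. The serotonin carrier SLC6A4 was well above background on 0 malignant, 2 benign and 2 healthy arrays. Among the potassium channel genes not yet given, KCNA2 differed by 0.01 and 0.04 in malignant and benign against healthy tissue. The binding protein KCNIP2 differed by 0.48 and 0.88, and the accessory subunit KCNE2 by -1.33 and -1.24. KCNE2 was well above background on 3 malignant, 2 benign and 2 healthy arrays. It was high in healthy dog 1 alone, at -3.35, while healthy dog 2 lay among the tumours at -5.57. The inward rectifier KCNJ2 and the organic cation carrier SLC22A2 were each well above background on 2 malignant, 2 benign and 0 healthy arrays, which leaves no fold to give.

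In several of the members with the largest negative differences, the value rested on healthy dog 1. Healthy dog 1 was the highest of the 10 dogs in 12 of the 64 members tested (18.8%, beside 17.1% of all genes), and healthy dog 2 in 2 (3.12%, beside 4.46%). In 11 of the 12 members highest in healthy dog 1, healthy dog 2 lay within the range of the tumours. Malignant dogs 5 and 3 were the highest as often, in 13 and 12 members (20.3% and 18.8%, beside 20% and 22.2% of all genes). Healthy dog 1 was also the lowest in 11 members (17.2%, beside 17.7% of all genes). The gap between the healthy dogs was 4.76 in KCNH2, 4.18 in SLC9A3R2, 3.71 in SLC7A8, 3.21 in TRPV4 and 2.75 in SLC6A3 on the log2 scale. The exocrine pancreas and islet markers were also higher in healthy dog 1 than in healthy dog 2, by the summed levels given above, and all 7 exocrine markers were higher in both healthy dogs than in every tumour. Their part in these differences was not tested.

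**Figure D4:**
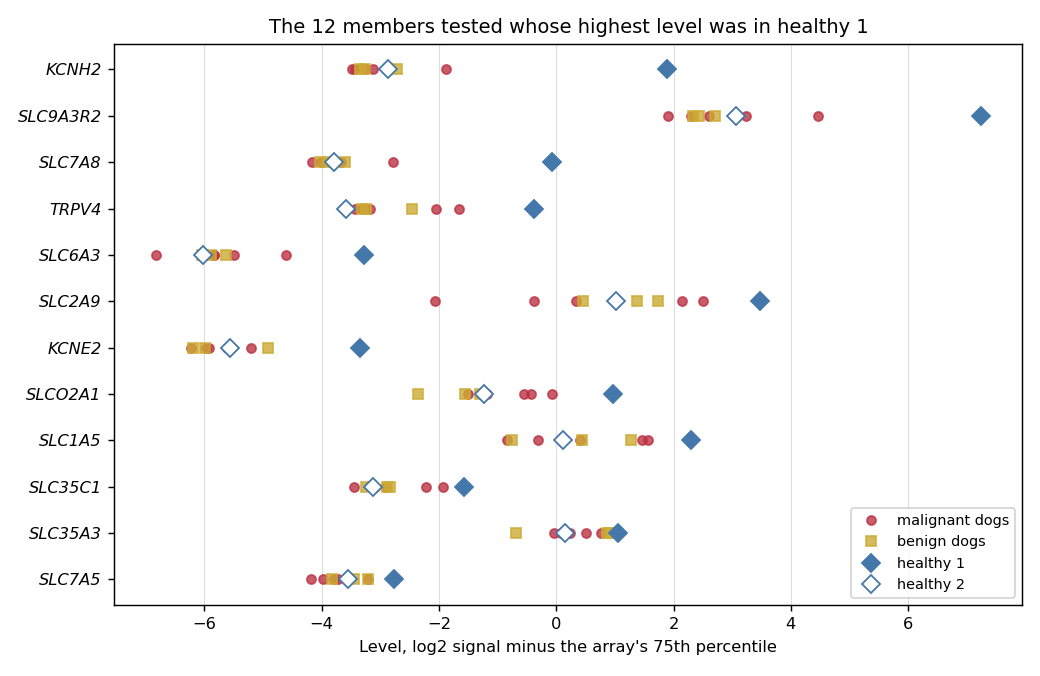
Level (log2 signal minus the 75th percentile of the array) of the 12 members tested in which healthy dog 1 was the highest of 10 dogs, ordered by the gap between the healthy dogs. Filled diamonds are healthy dog 1, open diamonds healthy dog 2, circles the 5 malignant and squares the 3 benign dogs, and the open diamond lies within the tumours in 11 of the 12 genes.

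Pumps, pores and junction proteins outside these symbols were counted as a further list of 97 transport genes, of which 27 had a named probe and 22 were tested. None was called, beside 0.304%, 0.28% and 0% of all genes in the 3 comparisons. At an unadjusted p of at most 0.05 in the fit, 2 of the 22 were higher and 3 lower in malignant against healthy tissue. The shares of all genes were 2.25% and 3.6%. In benign against healthy tissue 1 was higher and 2 were lower, beside 3% and 3.78% of all genes. Between the tumours 0 differed so, beside 0.661% higher and 1.11% lower of all genes. The median log2 fold change of the list was -0.52 and -0.02, beside 0.07 and 0.01 over all genes. CFTR, the chloride channel of pancreatic and other ducts, differed by -5.33 ± 1.46 (SE) in malignant and -3.17 ± 1.59 (SE), unadjusted p = 0.0725, in benign tissue. FXYD2, a subunit of the sodium pump in kidney, differed by -6.50 ± 1.96 (SE) in malignant and -7.26 ± 2.13 (SE) in benign tissue. FXYD2 was well above background on 2 malignant, 2 benign and 4 healthy arrays, so that its differences rest largely on signals near background. PLN, the inhibitor of the calcium pump of muscle, differed by -4.43 ± 1.97 (SE) and -4.90 ± 2.15 (SE). It was well above background on 3 malignant, 4 benign and 4 healthy arrays. In the other direction, CLIC1, an intracellular chloride channel protein, differed by 1.55 ± 0.66 (SE) and 2.07 ± 0.72 (SE). GJA1, a gap junction protein, differed by 3.18 ± 1.20 (SE) in malignant tissue. Healthy dog 1 was the lowest dog in both, at 1.49 in CLIC1 and -6.04 in GJA1. In CLIC1 healthy dog 2 stood at 3.96, among the malignant dogs. In GJA1 it stood at -2.70, above malignant dog 1 at -2.82, and 2 healthy arrays were well above background. CFTR and FXYD2 were highest in healthy dog 1, at 2.44 and 3.33, the dog with the higher pancreatic marker levels. Healthy dog 2 stood at -1.62 in CFTR, below benign dog 1 at -0.59. In FXYD2 it stood at -1.66, below malignant dog 4 at -0.07. The part of the pancreatic markers in these differences was not tested.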

How the data were processed

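Total RNA from mammary tissue was labelled with Cy3 and hybridised to Agilent canine arrays. After scanning, the authors extracted the signals with Agilent Feature Extraction. The scanner values give its version as 11.5.1.1, while the paper's methods name another version. The deposited scanner values of 19 arrays held intensity per spot, background-subtracted as the processed signal, and the deposited table of 22 arrays held median signal intensity, equal to the scanner's median signal in all 45220 spots of those 19 arrays.

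Processed signals were taken as log2 and expressed relative to the 75th percentile of their array, control spots were left out, spots of a probe and then the duplicate arrays of a dog were averaged, and the brightest probe stood for its gene. The labels call the duplicates biological, and they were counted as 1 replicate of a dog. Probes were named through RefSeq messenger RNA accessions, which gave a symbol to 2348 of 2441 such probes. A gene was tested where 4 or more arrays had its probe well above background. The 3 groups were fitted together in limma 3.58.1 (R 4.3.3), p-values were adjusted by Benjamini-Hochberg over 28915 genes, and a gene was called at an adjusted p of at most 0.05. The script was tested on simulated data. A probe well above background on no array of a group had a bound. On each array of that group, it was the higher of the probe's own level and the lowest signal well above background. The mean of the other group was set against it. The number of arrays limits the precision, and no saturated spot was found.

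Genes were named by rule, as every member called, the 5 with the largest differences in each direction of each comparison among members detected in both groups, the 5 with the highest mean level and the 5 with the largest SD over malignant dogs, 24 in all. The 7 others with an unadjusted p of at most 0.05 were added after their values were seen. Members and gene lists were chosen with earlier results of these data known. Background correction by normexp used the median signal, with an offset of 50, as no mean signal was used here. Same-numbered dogs of different groups did not deviate together (r between -0.187 and 0.106 over 7 pairs), so that the numbers were not used as pairs. Some members are counted but not reported here by name.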

Additional observations from a re-analysis of the deposited data

Results flagged for a closer look

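Among the 5 malignant dogs, 1 dog lay far from the others in 4 of the named members, by Dixon's ratio of the gap to the range. Chance alone exceeds its limit in about 1 in 20 groups, for each member looked at. The ratio was taken for the 24 members named by rule and for those added after their values were seen. Some of these were chosen for a wide spread, and the share over all genes was not computed. Malignant dogs 3 and 5 were the highest of the 10 dogs in 22.2% and 20% of all genes. Malignant dog 3 was highest in KCNH2 (ratio 0.774) and in SLC12A4 (ratio 0.890). Malignant dog 5, whose single array had a slide, scan day and scanner of its own, was highest in SLC45A2 (ratio 0.765), and malignant dog 1 in SLC6A12 (ratio 0.807).

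Malignant dog 6 was measured only in the table of signals with no background subtracted. Its SLC2A1 level there was 3.06, above both healthy dogs, at 0.17 and 1.55, by 1.51 over the higher. Its SLC35B4 level was -1.22, above the healthy dogs at -1.98 and -2.13 by 0.766.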

How the results depend on the processing

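The counts of calls and the log2 fold changes of named members were recomputed under 24 alternatives, while other values were not. The 3 counts of members called were 0 under each except those given here. With each array taken as an independent sample, which counts the duplicates of a dog as replicates, 2, 8 and 1 members were called in malignant against healthy, benign against healthy and malignant against benign tissue, beside 1254, 1979 and 50 of all genes. Leaving out 1 dog at a time gave 0 to 3, 0 to 3 and 0 to 0 members, and 51 to 814, 47 to 862 and 0 to 1 of all genes, the extremes coming from healthy dogs 1 and 2 (malignant against benign, from benign dog 3), and 53 genes of benign against healthy tissue were called without benign dog 2. Testing only probes well above background on every array gave 27 and 26 calls of all genes against healthy tissue, a replicate block gave 51 and 50, the methods' t-test 9 and 0 (run unpaired with Benjamini-Hochberg adjustment, where the methods name a paired test with Storey's correction), and a fit of the benign and healthy dogs alone 9. The replicate numbers did not pair dogs, and 0 of 6 malignant and benign dogs correlated best with the dog of their own number.

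Of the values of single members under the alternatives, 2182 stayed on the same side of the threshold, 17 became called (with arrays as independent samples or without healthy dog 2) and 0 called values reversed. The cause of these shifts was not tested. The table of signals for the same 19 arrays was added after seeing the data. Scaling by normexp moved the median of all genes by -0.27, -0.53 and 0.27 in the 3 comparisons, and signs of dim members such as KCNJ12, SLC45A2 and SLC23A2 differ under it. With 2 healthy dogs, an exact permutation test could not go below p = 0.0952 for malignant and p = 0.2 for benign tissue. Where a group had no array well above background, a fitted difference is no measured size. With 1 healthy dog left out, the other is assumed to vary like the tumour groups.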
